A study of Mus musculus with 4 samples.

Results

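The tumours of mice given an antibody against PD-1 and of mice given doxorubicin with fasudil were compared directly, cell type by cell type. One library of B16F10 tumour, the mouse melanoma line, stood for each treatment, named aPD-1 and D+F after their labels. A barcode was kept when it held 300 genes and 500 UMIs (unique molecular identifiers, each counting 1 captured transcript) or more, with mitochondrial UMIs at 20% or less. Cells were then assigned by fixed marker counts to melanoma cells, CD8 T cells or C1q macrophages. These 3 types held 3519 of the 4730 kept cells of the pair, 1552 in the aPD-1 library and 1967 in the D+F library, out of 9461 kept cells in the series. The aPD-1 library carries PD-1 antibody alone, and the D+F library carries doxorubicin plus fasudil and no antibody. An untreated control library and a library that received all 3 agents, labelled D+F+P, serve as background values. All tumours were grown from the same cell line and passed through tissue digestion, red cell lysis and removal of dead cells before 5′ droplet sequencing. The labels give no doses, no days and no number of mice per library. With 1 library per treatment, no test between treatments was possible, cells are not replicates, and every interval below covers counting error only.

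PD-1 is an inhibitory receptor of activated T cells, and an antibody against it keeps it from binding its ligands, of which PD-L1 (Cd274) is often induced on tumour cells by interferon gamma. Doxorubicin, an anthracycline, traps topoisomerase II on DNA, which breaks the DNA and activates p53, and it is known for a form of tumour cell death that alerts the immune system. Fasudil inhibits ROCK1 and ROCK2, kinases that drive actomyosin contraction, and the submitters gave it to favour engulfment of dying cells. The direct comparison thus sets a treatment aimed at T cells against a treatment aimed at tumour cells and at those that engulf them.

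The aPD-1 library held 2525 barcodes with 27216211 UMIs, of which 2240 barcodes were kept, and the D+F library held 2809 with 31937128 UMIs, of which 2490 were kept. Median depth was 9589 UMIs per kept cell in aPD-1 and 12887.5 in D+F, and 16 barcode sequences occurred in both libraries. Barcodes with under 10% ribosomal UMIs made up 15.4% of kept cells in aPD-1 and 9.80% in D+F. Markers that the assignment did not use were checked against the 3 names. Tyr and Mitf were detected in 89.7% and 92.0% of aPD-1 melanoma cells and in 90.4% and 91.8% of D+F melanoma cells. The cytotoxic granule gene Nkg7 was detected in 97.2% and 94.4% of CD8 T cells. In macrophages the adaptor Tyrobp was detected in 95% of aPD-1 cells and 94.3% of D+F cells, but the lysozyme gene Lyz2 in 66.2% against 88.6%. Close to the thresholds, 27 melanoma cells of aPD-1 and 53 of D+F had 10 to 19 UMIs of the pigment genes, and a further 43 and 86 cells with 5 to 9 fell outside. For CD8 T cells, 13 and 10 cells entered with 2 UMIs of Cd3 genes, and 12 and 10 stayed out with 1. Among macrophages, 13 and 2 cells entered with 5 to 9 UMIs of C1q genes, and 18 and 5 stayed out with 2 to 4.

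Tumour cells made up less of the aPD-1 suspension than of the D+F suspension, and CD8 T cells and C1q macrophages made up more. Melanoma cells were 1082 of 2240 kept cells in aPD-1, or 48.3% (exact 95% interval 46.2 to 50.4), and 1702 of 2490 in D+F, or 68.4% (66.5 to 70.2). The control library held 83.9% and the D+F+P library 20.3%, so both libraries of the pair lay between them. CD8 T cells numbered 395, or 17.6% (16.1 to 19.3), in aPD-1 and 232, or 9.32% (8.20 to 10.5), in D+F, a ratio of shares of 1.89 (1.63 to 2.20). In the control library 18 cells, or 0.787%, met the same definition. C1q macrophages numbered 80, or 3.57% (2.84 to 4.43), against 35, or 1.41% (0.981 to 1.95), a ratio of 2.54 (1.71 to 3.76). These percentages share a total, so fewer melanoma cells raise every other share. Of the cells outside the melanoma gate, CD8 T cells were 34.1% (31.4 to 36.9) in aPD-1 and 29.4% (26.3 to 32.8) in D+F, a ratio of 1.16 (1.01 to 1.33). Macrophages were 6.91% (5.52 to 8.52) and 4.44% (3.11 to 6.12) of those cells, a ratio of 1.56 (1.06 to 2.29). Cells that met no definition, with median depths of 1271.5 and 938.5 UMIs, were 26.7% of aPD-1 and 19.4% of D+F. Of the cells outside the melanoma gate they were 51.6% and 61.4%, so the ratios of 1.16 and 1.56 depend on these shallow barcodes. Shares among only the cells that met a definition were not computed. Whether fewer tumour cells or better recovery of immune cells set the shares cannot be told apart in dissociated tissue.

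**Figure D1:**
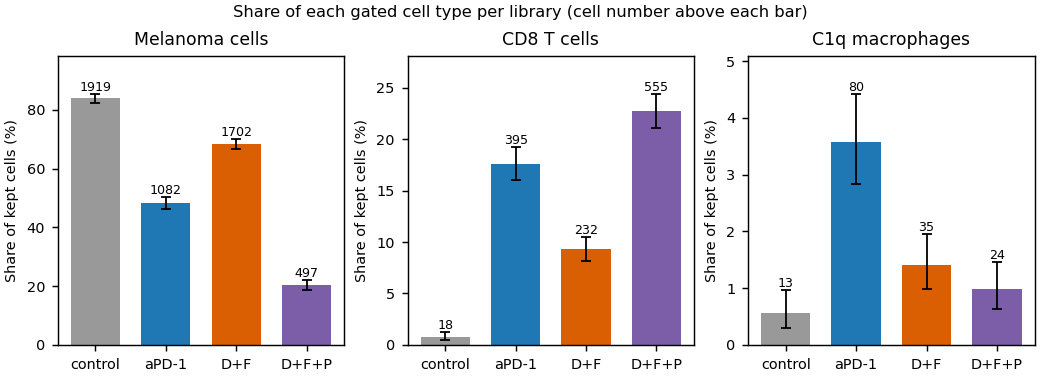
Share of kept cells (%) in each library for the 3 cell types, with the number of cells above each bar and exact 95% intervals as error bars (counting error only). Melanoma cells make up 48.3% of aPD-1 and 68.4% of D+F, whereas CD8 T cells make up 17.6% and 9.32% and macrophages 3.57% and 1.41%.

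Gene levels were compared as the gene's UMIs over all cells of a type, scaled to counts per 1e6 gene UMIs (CPM). Differences are given as the log2 ratio of aPD-1 over D+F, so a positive value is higher in the aPD-1 library, each followed by its exact 95% interval. A gene was counted as higher in one library where the ratio reached 1.5-fold. Among melanoma cells, 12230 genes had at least 20 UMIs in the pair. Of these, 322 (2.63%) were at least 1.5-fold higher in aPD-1 and 445 (3.64%) were at least 1.5-fold higher in D+F. The whole interval lay beyond 1.5-fold for 20 and 41 of them. The median over all genes was -0.004. Most melanoma genes thus lay within 1.5-fold of each other.

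Genes of MHC class II antigen presentation were higher in aPD-1 melanoma cells. These genes load peptides onto class II molecules for CD4 T cells, and tumour cells can express them under interferon gamma. All 10 measured members had ratios above 0, with intervals that excluded 0, and 3 reached 1.5-fold, against 2.63% of all genes. The list's median was 0.49, against -0.004 over all genes tested. The invariant chain Cd74, which guides class II molecules to the peptide-loading compartment, was at 2474 CPM in aPD-1 and 1595 CPM in D+F, a log2 ratio of 0.63 (0.61 to 0.65). It was at 818 CPM in the control library and 3202 CPM in D+F+P, so the order ran control, D+F, aPD-1, D+F+P. H2-Aa, the alpha chain of I-A, followed the same order at 121, 324, 469 and 760 CPM, with a ratio of 0.53 (0.49 to 0.57) between aPD-1 and D+F. The beta chain H2-Eb1 was at 272 CPM in aPD-1 and 191 CPM in D+F, a ratio of 0.51 (0.45 to 0.56). Larger ratios came from members with few UMIs. The protease cathepsin S (Ctss), which trims the invariant chain, had 86 and 58 UMIs in aPD-1 and D+F melanoma cells, a ratio of 1.02 (0.52 to 1.52). Ctss counts among the 3 members past 1.5-fold, and the part of other cells' RNA in its ratio was not tested. H2-Eb2, a class II beta chain gene, had 86 and 64 UMIs, a ratio of 0.88 (0.39 to 1.37). Ciita, the transactivator on which class II transcription depends, was at 8.34 and 6.57 CPM, a ratio of 0.34 (0.04 to 0.65). The difference was spread over cells. Summed class II levels per cell had a median of 2949 CPM in aPD-1 and 1613 CPM in D+F, against 603 CPM in control and 4506 CPM in D+F+P. After every cell was reduced to 1000 UMIs, 83.2% (80.8 to 85.4) of aPD-1 and 68.3% (66.0 to 70.5) of D+F melanoma cells kept a class II UMI. For Cd74 alone the shares were 76.5% (73.8 to 79.0) and 59.3% (56.9 to 61.7), from 98% and 90.7% before that reduction. CD8 T cells, which should lack Cd74 as mouse cells of that lineage do not make class II molecules, gave 12.0% and 17.2%, at median depths of 6387 and 5351.5 UMIs against 18807.5 and 16252.5 UMIs in melanoma cells.

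Markers of other cells in the melanoma profiles were low. T and NK cell genes summed to 16.2 CPM in aPD-1 and 10.7 CPM in D+F, with 9 of 9 measured members above 0 and a median of 0.80. Of the 6 myeloid genes measured, 4 were above 0, with a median of 0.63, and their sum was 535 CPM and 591 CPM, nearly all from Apoe, which melanoma cells express. The C1q gene C1qb was at 0.732 and 0.321 CPM. The list of stromal, B cell, red cell and keratinocyte genes summed to 4.15 and 9.39 CPM. Cells that also carried the markers of another type numbered 9 and 3, and without them the class II median stayed between 0.48 and 0.53, as it did under all 9 alternatives tried. Leaving out those cells does not remove other cells' RNA spread over the remaining melanoma cells. The part of such RNA in the class II ratios was not tested.

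The promoters of the class II genes are printed because every measured member was higher in the same library. Class II promoters are known for a shared set of boxes, among them the Y box, an inverted CCAAT sequence bound by the factor NF-Y. The sequences are the 250 bases before the gene start as RefSeq gives it on GRCm38.p6, 5′ to 3′ on the gene's strand. Capitals mark CCAAT or its reverse complement. H2-Aa lies at chr17:34282744-34287823 on the minus strand, its printed region at chr17:34287824-34288073, and H2-Eb2 has its printed region at chr17:34325425-34325674 on the plus strand.
H2-Aa: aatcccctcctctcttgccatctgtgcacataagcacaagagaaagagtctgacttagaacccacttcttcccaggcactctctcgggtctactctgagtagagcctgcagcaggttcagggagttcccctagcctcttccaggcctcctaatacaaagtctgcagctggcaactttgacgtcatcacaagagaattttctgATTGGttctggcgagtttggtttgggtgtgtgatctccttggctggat
H2-Eb2: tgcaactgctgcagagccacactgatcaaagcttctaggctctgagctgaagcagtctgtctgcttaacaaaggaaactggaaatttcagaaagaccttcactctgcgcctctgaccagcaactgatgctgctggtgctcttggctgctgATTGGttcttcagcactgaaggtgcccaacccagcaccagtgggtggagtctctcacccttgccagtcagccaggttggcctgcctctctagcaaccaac
The match begins 48 bases before the start in H2-Aa and 100 bases before it in H2-Eb2. Promoter sequences were found for 10 of the 13 class II genes listed, and 7 of them (70%) held CCAAT on either strand, against 33.8% of all 32851 promoter windows of this length. The 2 other motifs searched, GAANNTTC and the longer heat shock element with a further GAA unit, were found in 3 (30%) and 0 of the 10 class II promoters, and in 6.69% and 0.466% of all windows. GAANNTTC is also present in lower case in both sequences above, without overlapping the capitals. A match describes letters in a window and shows no binding.

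Class I presentation and the wider interferon gamma response differed less. The class I list had a median of 0.16, with 19 of 22 members above 0 and 2 at 1.5-fold, against 2.63% of all genes. Those 2 were the low-count genes H2-Q4 and H2-Q7, whose near-identical relatives can share reads. B2m, the light chain of class I molecules, was at 1836 and 1532 CPM, a ratio of 0.26 (0.24 to 0.28), and the class I transactivator Nlrc5 at 47.4 and 38.9 CPM, a ratio of 0.29 (0.16 to 0.41). The interferon gamma list had a median of 0.13, with 20 of 28 members above 0 and 1 member past 1.5-fold in each direction. Cd274, which encodes PD-L1, was at 32.7 CPM in aPD-1 and 24.3 CPM in D+F melanoma cells, a ratio of 0.43 (0.27 to 0.58), between 14.9 CPM in control and 38.4 CPM in D+F+P. At equal depth the Cd274 ratio was 0.18, and the shares of cells with a UMI, 2.51% (1.66 to 3.63) and 2.32% (1.66 to 3.16), overlapped. In CD8 T cells those shares were 3.13% and 3.96%. Before thinning they were 34.5% and 25.1% in melanoma cells and 11.6% and 13.4% in CD8 T cells. Cd274 was at 18.6 and 23.4 CPM in CD8 T cells. Whether they express it themselves was not tested, so their shares set no background level. Socs1, a feedback inhibitor of interferon signalling, was at 17.5 and 11.8 CPM, a ratio of 0.57 (0.35 to 0.79). The chemokine Cxcl9, which draws CXCR3-bearing T cells, ran the other way at 6.34 and 15.1 CPM, a ratio of -1.25 (-1.54 to -0.96). With cell means the Cxcl9 ratio was -1.05, but at equal depth it was 0.03. At that depth 14 and 23 melanoma cells, or 1.30% (0.713 to 2.17) and 1.37% (0.870 to 2.05), had a Cxcl9 UMI. So few cells make the equal-depth value imprecise. Cxcl10 was at 1074 and 1190 CPM, a ratio of -0.15 (-0.17 to -0.12). Type I interferon genes had a median of 0.03, and Ifi27l2a was the 1 of 29 past 1.5-fold, at 9.22 and 5.96 CPM, a ratio of 0.63 (0.32 to 0.94). Ifi27l2a stood at 2041 and 1012 CPM in CD8 T cells of these libraries. The part of other cells' RNA in its melanoma ratio was not tested.

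Genes of the p53 response tended lower in aPD-1 than in D+F melanoma cells. Of 27 measured members, 19 were below 0, 2 were at least 1.5-fold higher in D+F (3.64% of all genes were) and none was 1.5-fold higher in aPD-1, with a median of -0.16. Gdf15, a secreted stress cytokine and p53 target, was at 2.24 CPM in aPD-1 and 6.93 CPM in D+F, a ratio of -1.63 (-2.12 to -1.16). The antiproliferative gene Btg2 was at 4.78 and 9.32 CPM, a ratio of -0.96 (-1.31 to -0.62), and at -0.36 with cells at equal depth. Ccng1, encoding cyclin G1, was at 113 and 159 CPM, a ratio of -0.49 (-0.56 to -0.42). The cell cycle inhibitor Cdkn1a (p21) was at 191 CPM in aPD-1 and 260 CPM in D+F, a ratio of -0.45 (-0.51 to -0.39). The control library had 246 CPM of Cdkn1a, 184 CPM of Ccng1 and 8.98 CPM of Gdf15, so these genes were near or above the D+F level without treatment. D+F+P, which also received doxorubicin, had 151, 91.2 and 3.04 CPM.

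Mitotic and heat shock genes were also slightly lower in aPD-1. Of 26 genes of G2 and mitosis, 23 were below 0, with a median of -0.20, and Cdc20, which activates the anaphase-promoting complex, was the 1 past 1.5-fold at 30.1 and 45.2 CPM, a ratio of -0.59 (-0.73 to -0.45). The share of cells with a UMI of this list at equal depth was 41.3% (38.3 to 44.3) in aPD-1 and 42.8% (40.4 to 45.2) in D+F, with overlapping intervals, against 60.0% in control. Top2a, the topoisomerase that doxorubicin traps, was at 88.9 and 87.3 CPM, a ratio of 0.03 (-0.06 to 0.12). Among 17 heat shock genes 15 were below 0, with a median of -0.19. The kinases that fasudil inhibits differed little in transcript level, at ratios of 0.10 (-0.01 to 0.22) for Rock1 and 0.02 (-0.09 to 0.12) for Rock2. Actomyosin and SRF/YAP targets, which respond to that pathway, had a median of 0.04. Of 26 members 2 were 1.5-fold higher in aPD-1 and 1 in D+F, against 2.63% and 3.64% of all genes. Tagln2, an actin-binding protein, was at 94.5 and 41.0 CPM, a ratio of 1.21 (1.10 to 1.31), and its control level was 151 CPM. A Tagln2 UMI was also present in 40.4% and 46.7% of CD8 T cells at equal depth, against 7.53% and 3.39% of melanoma cells. The matricellular YAP target Ctgf was at 1.95 and 3.68 CPM, a ratio of -0.91 (-1.48 to -0.37), and its relative Cyr61 at 39.0 and 58.5 CPM, a ratio of -0.58 (-0.71 to -0.46). Calreticulin (Calr), which dying cells expose as a signal for engulfment, and Cd47, which blocks engulfment, had ratios of 0.01 (-0.03 to 0.05) and 0.00 (-0.10 to 0.10).

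Single melanoma genes were named by the most extreme interval bound among genes with at least 50 UMIs. Highest in aPD-1 were the transcription factor Klf4, at 88.5 and 51.9 CPM, a ratio of 0.77 (0.67 to 0.87), and Axin2, a negative regulator and target of Wnt signalling, at 6.73 and 3.46 CPM, a ratio of 0.96 (0.57 to 1.35). Mgll, a lipase that splits monoacylglycerols, was at 264 and 176 CPM, a ratio of 0.58 (0.53 to 0.64), and the glutathione transferase Gsta4 at 153 and 103 CPM, a ratio of 0.57 (0.49 to 0.64). Sult5a1, Rapgef5, Nr2f1, Mpp7, Uchl1 and Rims2 completed the 10, with ratios from 0.69 to 1.29 and at most 18.0 CPM, and Rapgef5 was at -0.06 with cells at equal depth. Lower in aPD-1 were Ikzf4, an Ikaros family transcription factor, at 4.49 and 13 CPM, a ratio of -1.53 (-1.88 to -1.20), and the phosphatase Ptp4a3 at 5.46 and 12.4 CPM, a ratio of -1.18 (-1.50 to -0.87), and -1.94 at equal depth. Wfdc13, Myo5c, Trim69, Elavl3, Col9a1, Tmem91, Lsmem1 and Ttn made up the rest, with ratios from -2.30 to -1.22 and at most 5.64 CPM. Klf4 was at 99.8 CPM in control, above both, while Ikzf4 was at 3.25 CPM in control, close to aPD-1, and at 12.8 CPM in D+F+P, close to D+F.

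**Figure D2:**
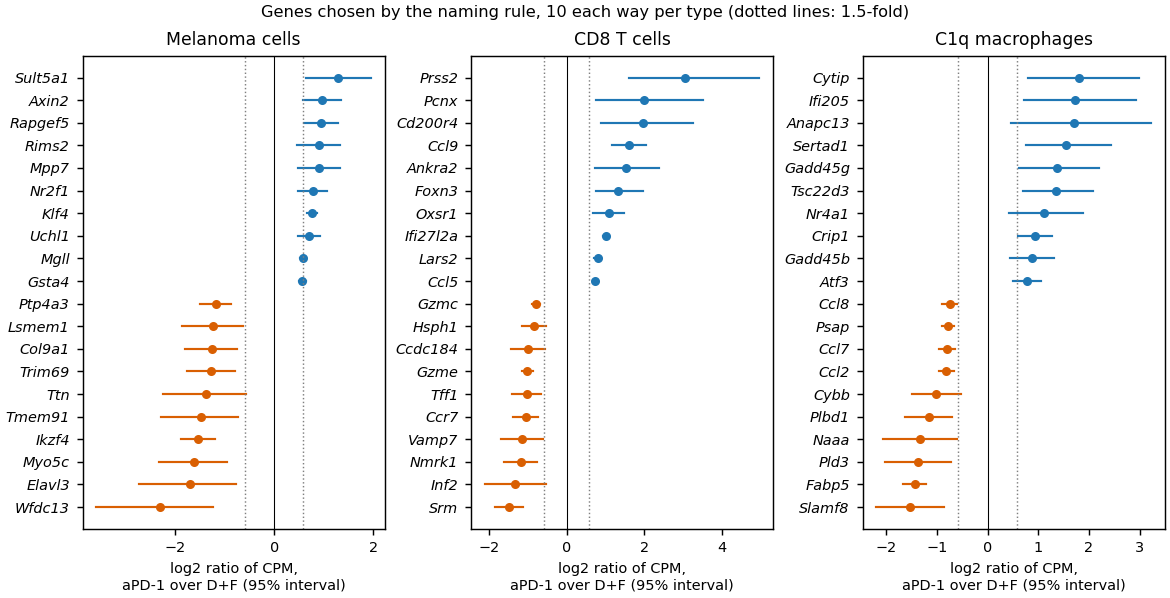
Log2 ratio of CPM, aPD-1 over D+F, for 10 genes per cell type in each direction, chosen by the interval bound nearest to 0. Points are ratios, lines are exact 95% intervals and dotted lines mark 1.5-fold; melanoma intervals are narrower at a given ratio for abundant genes such as Klf4 (0.67 to 0.87) than for Wfdc13 (-3.59 to -1.22).

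In CD8 T cells, 8555 genes had at least 20 UMIs in the pair, 808 (9.44%) were at least 1.5-fold higher in aPD-1 and 537 (6.28%) in D+F, with the whole interval beyond 1.5-fold for 57 and 36. Fewer cells and UMIs lie behind these values, 2843291 UMIs in 395 cells and 1535952 UMIs in 232 cells. Heat shock genes were lower in aPD-1 CD8 T cells. Chaperones of this group refold damaged proteins and are induced by heat, toxic stress and tissue handling. Of 18 measured members 17 were below 0, 15 with intervals that excluded 0, and 7 were at least 1.5-fold higher in D+F, against 6.28% of all genes, with a median of -0.44. The abundant chaperone Hspa8 was at 2997 CPM in aPD-1 and 4067 CPM in D+F, a ratio of -0.44 (-0.49 to -0.39), and Hsp90ab1 at 3614 and 4710 CPM, a ratio of -0.38 (-0.43 to -0.34). Hsph1, which recharges Hsp70 proteins, was at 64.7 and 116 CPM, a ratio of -0.84 (-1.15 to -0.54). The inducible Hsp70 gene Hspa1a was at 7.39 and 46.9 CPM, a ratio of -2.67 (-3.44 to -1.95), but it rested on few cells. A Hspa1a UMI was found in 2.53% and 4.74% of the cells, 1 D+F cell held 38.9% of the D+F UMIs, and the ratio of cell means was -1.77. Its near-identical copy Hspa1b, at 5.63 and 24.1 CPM, can share reads with it. The small chaperone Hspb1 was at 8.79 and 16.3 CPM, a ratio of -0.89 (-1.75 to -0.03), with 76.0% of its D+F UMIs in 1 cell. Summed per cell, the list had a median of 9132 CPM in aPD-1 and 11936 CPM in D+F, so the middle of the distribution was lower and not its top alone. The D+F+P library, which also received doxorubicin and fasudil, had a median of 9048 CPM, close to aPD-1. Heat shock factor elements are built from repeated GAA units in alternating orientation, and a pair of promoters is printed to show them in members past 1.5-fold. Capitals mark GAANNTTC, which reads the same on both strands. The regions are chr17:34972157-34972406 for Hspa1a, on the minus strand, and chr5:135887669-135887918 for Hspb1, on the plus strand, from the same RefSeq set.
Hspa1a: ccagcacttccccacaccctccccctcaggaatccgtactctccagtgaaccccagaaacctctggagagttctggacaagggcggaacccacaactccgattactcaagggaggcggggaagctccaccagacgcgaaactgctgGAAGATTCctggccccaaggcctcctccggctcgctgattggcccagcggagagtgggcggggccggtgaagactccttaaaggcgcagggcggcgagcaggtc
Hspb1: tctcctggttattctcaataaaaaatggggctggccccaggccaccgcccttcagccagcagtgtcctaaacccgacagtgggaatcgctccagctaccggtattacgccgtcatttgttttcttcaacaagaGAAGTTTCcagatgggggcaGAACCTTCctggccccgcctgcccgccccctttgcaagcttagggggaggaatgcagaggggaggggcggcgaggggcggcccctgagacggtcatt
The match begins 104 bases before the start in Hspa1a, and the 2 matches in Hspb1 begin 117 and 97 bases before it. Of 14 promoters found for the 18 listed genes, 5 (35.7%) held this motif, against 6.69% of all promoter windows and 3 of 10 (30%) class II promoters. The longer element was in 1 of the 14 (7.14%), and CCAAT in 6 of the 14 (42.9%) without overlapping the capitals printed.

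Several inhibitory receptors were higher in aPD-1 CD8 T cells, but the group of inhibitory and exhaustion genes was near the background of all genes. T cells that meet antigen for long take on these receptors and the factor Tox. Of 20 measured members 13 were above 0, 2 reached 1.5-fold (9.44% of all genes did) and none did in D+F, with a median of 0.21, or 0.09 with cell means. The 7 members below 0 included Cd160, at 64.0 and 81.4 CPM, a ratio of -0.35 (-0.68 to -0.01). Lag3, a receptor for class II molecules, was at 387 and 255 CPM, a ratio of 0.60 (0.43 to 0.77), Tox at 192 and 128 CPM, a ratio of 0.58 (0.34 to 0.82), and the checkpoint receptor Ctla4 at 378 and 258 CPM, a ratio of 0.55 (0.38 to 0.72). Cd244, a receptor of the SLAM family, was at 28.1 and 12.4 CPM, a ratio of 1.19 (0.45 to 1.99). The drug target itself, Pdcd1, which encodes PD-1, was at 606 and 584 CPM, a ratio of 0.05 (-0.06 to 0.17). Per cell the summed level had a median of 5903 CPM in aPD-1 and 5047 CPM in D+F, and the lowest 10% of cells lay below 2987 and 1327 CPM, so the libraries differed most at the low end. At equal depth the shares of cells with a Lag3 UMI, 32.6% (27.9 to 37.5) and 27.3% (21.6 to 33.6), overlapped, and melanoma cells gave 0.465% and 0.357%.

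Granzymes divided by member. Granzymes are proteases that killer cells release into their targets, and the neighbouring genes Gzmc, Gzmd, Gzme, Gzmf and Gzmg lie within one cluster on chromosome 14. Of 19 cytotoxic genes measured 4 were at least 1.5-fold higher in D+F, against 6.28% of all genes, and none in aPD-1. Their intervals lay above 0 for 6 and below 0 for 8. The median was 0.05, but -0.27 with cell means and -0.21 at equal depth. Gzmd was at 275 CPM in aPD-1 and 661 CPM in D+F, a ratio of -1.27 (-1.40 to -1.13), Gzme at 273 and 553 CPM, a ratio of -1.02 (-1.16 to -0.88), and Gzmc at 712 and 1231 CPM, a ratio of -0.79 (-0.88 to -0.70). Gzmg followed at 20 and 52.1 CPM, a ratio of -1.38 (-1.89 to -0.87), but 51.2% of its D+F UMIs came from 1 cell. Gzmf ran the other way at 1019 and 763 CPM, a ratio of 0.42 (0.32 to 0.52). Sequence likeness among Gzmd, Gzme and Gzmg makes their split uncertain. The levels came from few cells, as 10 cells held 63.1% of these 5 genes' UMIs in aPD-1 and 73.7% in D+F. At equal depth 20.1% (16.2 to 24.4) and 20.7% (15.6 to 26.6) of cells had a UMI of any of the 5, so the share of cells did not differ beyond counting error. Gzmb, the main granzyme, was at 2369 and 2154 CPM, a ratio of 0.14 (0.08 to 0.20), perforin (Prf1) at 611 and 442 CPM, a ratio of 0.47 (0.34 to 0.60), and interferon gamma (Ifng) at 297 and 246 CPM, a ratio of 0.27 (0.10 to 0.45). Their equal-depth shares overlapped, at 62.2% (57.2 to 67.1) and 53.7% (47.0 to 60.4) of cells for Gzmb and 25.8% (21.5 to 30.5) and 19.4% (14.5 to 25.1) for Ifng.

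Genes of naive, memory and effector T cells had members on both sides. Of 18 naive and memory genes 1 was 1.5-fold higher in aPD-1 and 5 in D+F, against 9.44% and 6.28% of all genes. Their median was -0.26 and turned positive under 3 of 9 alternatives. Ccr7, the receptor that brings T cells into lymph nodes, was at 57.0 and 118 CPM, a ratio of -1.06 (-1.37 to -0.74), and was detected in 9.11% and 19% of cells. At equal depth those shares were 4.69% (2.80 to 7.31) and 7.93% (4.77 to 12.2), with overlapping intervals and a ratio of -0.44, and Tcf7, the factor of memory-like cells, was found in 1.56% and 2.20%. Of 26 effector genes, 4 were 1.5-fold higher in aPD-1 and 2 in D+F, against 9.44% and 6.28% of all genes, with a median of 0.07. The chemokine Ccl5 was at 5618 and 3410 CPM, a ratio of 0.72 (0.68 to 0.77), and at 0.28 as a ratio of cell means. Its share at equal depth was 84.1% (80.1 to 87.6) and 72.7% (66.4 to 78.4), with 8.64% and 8.28% in melanoma cells. Cx3cr1 was at 21.5 and 11.1 CPM, a ratio of 0.95 (0.16 to 1.82), and Klrg1 at 8.79 and 18.9 CPM, a ratio of -1.10 (-1.93 to -0.28). Genes of G2 and mitosis pointed both ways, with 4 of 26 at 1.5-fold in D+F, against 6.28% of all genes, 1 in aPD-1 and a median of -0.06 that was 0.08 with cell means. Cdc20, at 39.4 and 62.5 CPM, had a ratio of -0.67 (-1.07 to -0.26), the cyclin Ccnb1 -0.75 (-1.24 to -0.26), and the kinases Plk1 -0.75 (-1.33 to -0.17) and Aurka -0.62 (-1.37 to 0.14). The spindle protein Nusap1 was at 61.2 and 37.1 CPM, a ratio of 0.72 (0.28 to 1.18). Mki67 had a ratio of 0.14 (-0.09 to 0.37) and Top2a of -0.02 (-0.24 to 0.19), the latter 0.85 at equal depth.

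Interferon-stimulated genes pointed both ways in CD8 T cells, 4 of 23 reaching 1.5-fold in aPD-1 and 6 in D+F. Over all genes tested in these cells the shares were 9.44% and 6.28%. The list's median was 0.05, but -0.35 with cell means. Ifi27l2a was at 2041 and 1012 CPM, a ratio of 1.01 (0.93 to 1.09), whereas the ubiquitin-like protein Isg15 was at 119 and 223 CPM, a ratio of -0.90 (-1.12 to -0.68). Isg15 held at equal depth, with 9.38% (6.65 to 12.7) of aPD-1 cells and 18.1% (13.3 to 23.7) of D+F cells positive, though melanoma cells, which express it too, gave 38.4% and 38.8%. Ifit3 was at 6.68 and 18.2 CPM, a ratio of -1.45 (-2.37 to -0.56). Genes of hypoxia and glycolysis had a median of 0.18, with 4 of 28 at 1.5-fold in aPD-1, against 9.44% of all genes, and none in D+F. Pdk1, which turns pyruvate away from mitochondria, was at 23.6 and 10.4 CPM, a ratio of 1.18 (0.37 to 2.06), and the mitophagy receptor Bnip3 at 116 and 71.0 CPM, a ratio of 0.71 (0.39 to 1.03). Cholesterol synthesis genes had a median of -0.26, with 2 of 23 at 1.5-fold in D+F, Fdps and Mvd, near the 6.28% of all genes, and a median of -0.13 with cell means. Unfolded protein response genes had a median of -0.24, with 18 of 22 below 0. Among genes named by interval bounds were Srm, which makes spermidine, at 38.0 and 106 CPM, a ratio of -1.48 (-1.85 to -1.12), and -0.55 at equal depth. Ccl9 was at 100 and 33.2 CPM, a ratio of 1.59 (1.16 to 2.05), or 2.28 at equal depth, and the kinase Oxsr1 at 93.6 and 44.3 CPM, a ratio of 1.08 (0.69 to 1.49). Prss2, Cd200r4, Foxn3, Pcnx, Ankra2 and Lars2 were also higher in aPD-1, with ratios from 0.80 to 3.04, of which Cd200r4 moved from 1.97 to 0.72 and Pcnx from 1.99 to 2.86 with cell means. Nmrk1, Tff1, Vamp7, Ccdc184 and Inf2 were lower, with ratios from -1.32 to -1.0, but Vamp7 was at -0.06 at equal depth.

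RNA of stromal cells was present in the aPD-1 CD8 T cell profile. The list of stromal and other genes had 5 of 5 measured members above 0 and summed to 95 CPM in aPD-1 and 11.1 CPM in D+F, Col1a1 alone giving 37.3 and 3.91 CPM. Fibroblasts numbered 41 cells (1.83%) in the aPD-1 library and 5 (0.201%) in D+F. Melanoma genes summed to 740 and 849 CPM, and the 4 measured myeloid genes to 127 and 150 CPM. The part of this RNA in the T cell differences was not tested gene by gene, but without the 10 and 4 cells that carried another type's markers, and under the 8 other alternatives, the heat shock median stayed between -0.45 and -0.25.

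The T cell receptor beta chains gave a partial view of the clones. Among cells with a Trbv UMI, the most abundant V gene per cell was Trbv12-1 in 128 of 358 aPD-1 cells, or 35.8% (30.8 to 41.0), and in 58 of 209 D+F cells, or 27.8% (21.8 to 34.3). The next genes in rank differed, but of these only Trbv17 had intervals that did not overlap between the libraries. In aPD-1 they were Trbv2, at 10.3% (7.38 to 14.0), and Trbv29, at 8.66% (5.96 to 12.1), which had 6.70% and 4.78% in D+F. In D+F they were Trbv31, at 13.4% (9.09 to 18.8), and Trbv17, at 10.5% (6.72 to 15.5), which had 7.26% and 0.559% in aPD-1. Trbv12-1 was the top gene of 3.58% (2.10 to 5.67) of 475 D+F+P cells. The number of mice behind each library is not known, and the T cell receptor sequences of single cells were not used here.

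**Figure D3:**
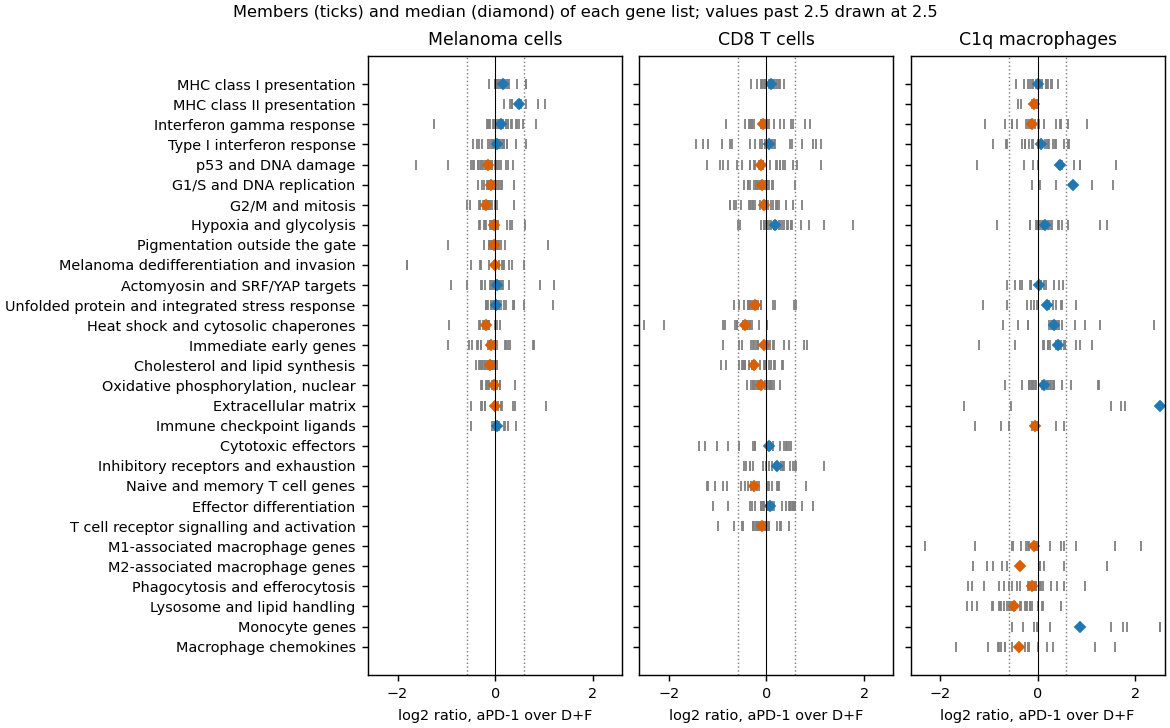
Log2 ratio, aPD-1 over D+F, of the members of each gene list with at least 20 UMIs in the pair (ticks) and the list's median (diamonds, blue where higher in aPD-1 and orange where higher in D+F), for the 3 cell types; dotted lines mark 1.5-fold. MHC class II lies right of 0 in melanoma cells (median 0.49), heat shock genes left of 0 in CD8 T cells (-0.44) and lysosome genes left of 0 in macrophages (-0.48); members at 0 UMIs in one library carry no tick.

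In C1q macrophages, 3233 genes had at least 20 UMIs in the pair, and 432 (13.4%) were at least 1.5-fold higher in each direction. The whole interval lay beyond 1.5-fold for 40 genes in aPD-1 and 25 in D+F. No more than 80 and 35 cells, with 390131 and 169330 UMIs, lie behind these values. Lysosome and lipid genes were lower in aPD-1 macrophages, which digest engulfed cells with these enzymes. Of 27 measured members 23 were below 0, 11 were at least 1.5-fold higher in D+F, against 13.4% of all genes, and none in aPD-1, with a median of -0.48. Psap, the precursor of saposins that help break down sphingolipids, was at 3466 and 5982 CPM, a ratio of -0.79 (-0.91 to -0.67), and was found in 74 of 80 and 34 of 35 cells. The fatty acid binding protein Fabp5 was at 738 and 2002 CPM, a ratio of -1.44 (-1.67 to -1.21), or -2.03 without low-ribosomal barcodes, and the lysosomal lipase Lipa at 138 and 266 CPM, a ratio of -0.94 (-1.54 to -0.34). Gpnmb was at 133 and 313 CPM, a ratio of -1.23 (-1.81 to -0.65), but 43.4% of its D+F UMIs lay in 1 cell and the ratio of cell means was -0.02. Melanoma cells also express Gpnmb, and the melanoma genes summed to 384 and 667 CPM in these macrophages. Per cell the list had a median of 21257 CPM in aPD-1 and 27436 CPM in D+F, against 23794.5 CPM in D+F+P. Other lysosomal genes named by interval bounds were Pld3, Plbd1 and Naaa, with ratios from -1.37 to -1.17, but Plbd1 was at -0.21 at equal depth and Pld3 at -0.49 with cell means.

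Chemokines of macrophages were mostly lower in aPD-1. Of 16 measured, 12 were below 0, with a median of -0.39. Past 1.5-fold were 7 in D+F and 2 in aPD-1, against 13.4% of all genes in each direction. The monocyte attractants Ccl2, Ccl7 and Ccl8, neighbours on chromosome 11, were at 2081, 1917 and 2458 CPM in aPD-1 and at 3667, 3331 and 4140 CPM in D+F. Their ratios were -0.82 (-0.97 to -0.66), -0.80 (-0.96 to -0.64) and -0.75 (-0.89 to -0.61). Ccl12 was at 346 and 1098 CPM, a ratio of -1.67 (-2.00 to -1.34), with 40.9% of its D+F UMIs in 1 cell and a ratio of cell means of -0.60. Summed per cell the chemokine medians were close, 14392 CPM in aPD-1 and 15499 CPM in D+F, and 10 of the 35 D+F cells held 71.9% of the UMIs. Ccl5 ran the other way at 1397 and 467 CPM, a ratio of 1.58 (1.24 to 1.94), with 17.8% (9.84 to 28.5) and 21.2% (8.98 to 38.9) of cells positive and a ratio of 0.69 at equal depth. A Ccl5 UMI was present in 84.1% and 72.7% of CD8 T cells at that depth, and T and NK cell genes summed to 718 and 11.8 CPM in these macrophages. Their part in the Ccl5 difference was not tested.

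Marks of macrophage state gave no single direction. Of 12 genes associated with alternative activation (M2), 5 were 1.5-fold higher in D+F and 1 in aPD-1, with a median of -0.37. For comparison, 13.4% of all genes tested in macrophages were past 1.5-fold in each direction. The mannose receptor Mrc1 was at 64.1 and 106 CPM, a ratio of -0.73 (-1.66 to 0.23), and arginase (Arg1) at 118 and 242 CPM, a ratio of -1.04 (-1.68 to -0.39), with 39.0% of its D+F UMIs in 1 cell, and -1.73 at equal depth. At that depth 9 and 5 macrophages had an Arg1 UMI, or 12.3% (5.80 to 22.1) and 15.2% (5.11 to 31.9), with overlapping intervals. Of 17 genes of classical activation (M1), 3 were 1.5-fold higher in aPD-1 and 2 in D+F, near the share of all genes, with a median of -0.07. Phagocytosis genes, the process that fasudil was given to favour, had a median of -0.12, with 6 of 22 members 1.5-fold higher in D+F and 1 in aPD-1. The Fc receptors Fcgr3, at 472 and 815 CPM, and Fcgr2b, at 144 and 307 CPM, had ratios of -0.79 (-1.12 to -0.46) and -1.10 (-1.67 to -0.52), but Fcgr3 was at -0.04 at equal depth. Sirpa, the receptor through which Cd47 blocks engulfment, was at 251 and 378 CPM, a ratio of -0.59 (-1.06 to -0.11). MHC class II genes, higher in aPD-1 among melanoma cells, had a median of -0.08 in macrophages, with none of 7 members past 1.5-fold, Cd74 standing at 11522 and 12154 CPM.

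Immediate early genes were mostly above 0 in macrophages, few of them past 1.5-fold. Immediate early genes answer signals within minutes and also tissue dissociation, and 17 of 19 were above 0, with a median of 0.41. Of these genes 3 reached 1.5-fold in aPD-1, near the 13.4% of all genes, and 1 in D+F, Egr1, at 100 and 230 CPM, a ratio of -1.20 (-1.88 to -0.53). Without the barcodes low in ribosomal UMIs, 24 and 7 of the cells, that median was 0.06. Atf3, a stress-induced transcription factor, was at 1397 and 815 CPM, a ratio of 0.78 (0.51 to 1.06), and Nr4a1 at 256 and 118 CPM, a ratio of 1.12 (0.41 to 1.89), or 2.02 at equal depth. Heat shock genes had a median of 0.34, with 12 of 16 above 0, the opposite sign to CD8 T cells, though whether the types differ was not tested. Of 10 p53 genes, 4 were 1.5-fold higher in aPD-1 and 1 in D+F, against 13.4% of all genes in each direction. Their median was 0.47, but ranged from 0.06 to 1.36 over 9 alternatives, the highest at equal depth. Gdf15 ran the other way at 218 and 514 CPM, a ratio of -1.24 (-1.69 to -0.79). Its ratio was -1.95 without low-ribosomal barcodes and -0.93 with cell means. A Gdf15 UMI was present at equal depth in 12.3% (5.80 to 22.1) and 33.3% (18.0 to 51.8) of macrophages. Cytip, Sertad1, Ifi205, Tsc22d3, Gadd45g, Crip1, Anapc13 and Gadd45b were also named as higher in aPD-1, with ratios from 0.87 to 1.8, of which Gadd45g was at 0.73 and Gadd45b at 1.54 at equal depth. Slamf8 and Cybb, the latter the catalytic subunit of the phagocyte oxidase, were lower, with ratios of -1.53 (-2.20 to -0.86) and -1.01 (-1.49 to -0.53).

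Transcripts of other cells were uneven between the macrophage profiles. T and NK cell genes summed to 718 CPM in aPD-1 and 11.8 CPM in D+F, with Gzmb UMIs in 7 aPD-1 cells and 89.7% of them in 1 cell. Collagens and Dcn summed to 943 CPM in aPD-1 and to 0 in D+F, where Col1a1 had 175 UMIs in 4 aPD-1 cells and none in D+F, at least 25.3-fold higher if D+F is set at 3 UMIs. Of 12 extracellular matrix genes 10 were 1.5-fold higher in aPD-1, against 13.4% of all genes. The part of this uneven stromal RNA in them was not tested. Spp1 was at 405 and 124 CPM, a ratio of 1.71 (1.05 to 2.44), and 0.79 without low-ribosomal barcodes. Monocyte genes had a median of 0.88 that turned negative under 3 alternatives, and within that list S100a6 was at 2268 and 638 CPM, a ratio of 1.83 (1.54 to 2.13).

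**Figure D4:**
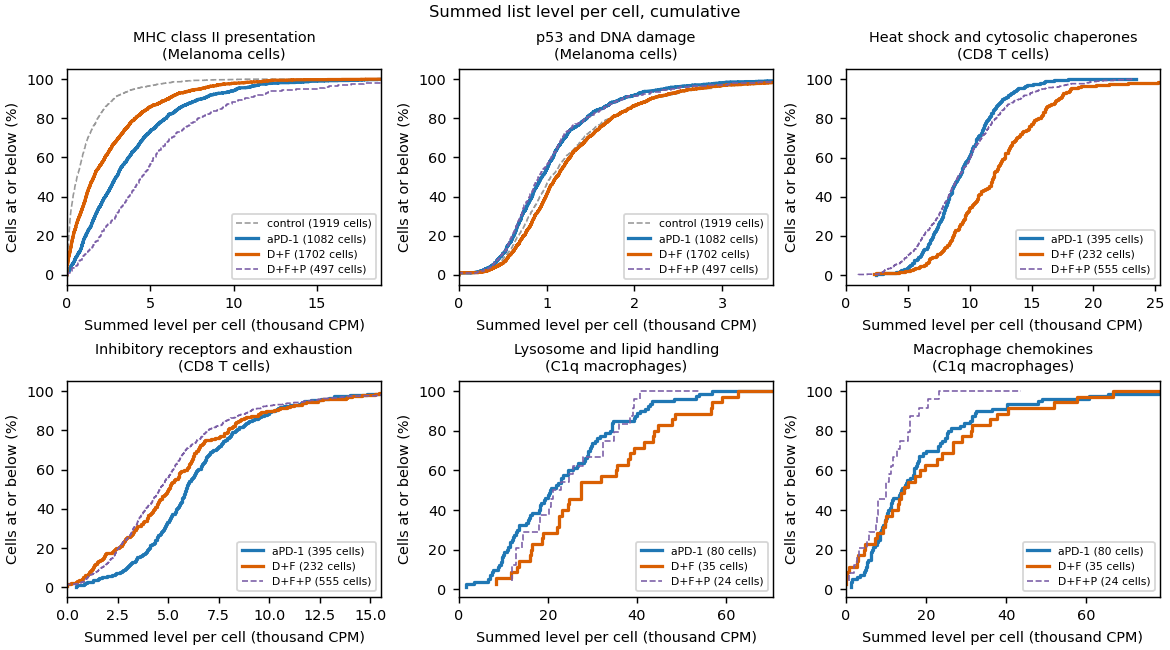
Cumulative share of cells (%) against the summed level of a gene list per cell (in units of 1000 CPM), for aPD-1 and D+F (solid) and, where they held at least 20 cells of the type, control and D+F+P (dashed). The aPD-1 curve lies right of D+F for MHC class II in melanoma cells (medians 2949 and 1613 CPM) and left of it for heat shock genes in CD8 T cells (9132 and 11936 CPM) and lysosome genes in macrophages (21257 and 27436 CPM).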

How the data were processed

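Gene expression in single cells of 4 tumour libraries was counted with Cell Ranger 3.1.0 on GRCm38 (mm10), per the submitters' processing notes, and the deposited matrices hold UMI counts per gene and barcode. The annotation release is not given in the sources used here. From these counts, cells were kept, assigned to types by summed marker UMIs (pigment genes at least 10 without Ptprc, Cd3 genes at least 2 with Cd8, C1q genes at least 5), and summed per library and type with Python 3.11.15, NumPy 2.4.6, SciPy 1.17.1 and pandas 2.3.3. Ratios of CPM carry exact conditional binomial 95% intervals and shares Clopper-Pearson intervals, or Katz intervals for their ratio. These cover counting error only. The ratios and their intervals were tested on simulated gene totals, which leave out the clustering of a gene's UMIs in single cells. Doublets were not called, and cells holding another type's markers were left out as an alternative. For equal depth, cells were thinned to 1000 UMIs and shallower cells left out.

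Per type, 10 genes in each direction were named, those whose interval bound nearest to 0 lay farthest from it. They needed at least 50 UMIs in the pair. In the library where the gene was higher, no cell could hold over 20% of its UMIs. Its CPM there had to be at least 25% of that in any other type. Gate, mitochondrial, ribosomal, haemoglobin, antigen receptor and unnamed genes were left out. Members at the ends of each list and a fixed set of genes were added. The members and lists were chosen with earlier results of these data known. Alternatives were another scaling, cell means, thinning, other cell and gene filters and a 2-fold threshold. Shares outside the melanoma gate were added after seeing the data.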

Additional observations from a re-analysis of the deposited data

How the results depend on the processing

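No paired analysis was possible because each treatment has 1 library. Ratios of melanoma shares were 0.752 with gates set after thinning and 0.757 without low-ribosomal barcodes. Outside the melanoma gate the ratio was 1.16 for CD8 T cells and 1.56 for macrophages. Counts of genes past 1.5-fold, higher in aPD-1 then in D+F, moved as follows. With at least 50 UMIs they were 160 and 205 in melanoma cells, 347 and 252 in CD8 T cells and 100 and 130 in macrophages. With at least 1 UMI in each library they were 1035 and 1225, 1600 and 1629, and 1644 and 2267. Past 2-fold they were 65 and 167, 243 and 120, and 176 and 120. Cell means gave 1260 and 870 in CD8 T cells and 659 higher in aPD-1 macrophages. Thinning gave 502 higher in aPD-1 melanoma cells, 433 in aPD-1 CD8 T cells, and 123 and 98 in macrophages.

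Of 61 list medians 40 kept their sign under every alternative run, and of 529 genes 427 did. Most of the other medians were within 0.1 of 0. Among medians of at least 0.1 in size and genes past 1.5-fold, signs reversed under cell means for CD8 T cells in MHC class I (-0.041), p53 genes (0.032) and Vegfa (-0.037). Cell means also changed the sign of Iigp1 in macrophages, from 1.01 to -0.13, and of Cd8b1 in melanoma cells, from 0.83 to -0.38. Medians nearer 0 also changed sign in CD8 T cells under cell means, to -0.27 for cytotoxic, -0.35 for type I interferon and 0.081 for G2/M genes. They reversed under thinning for Cxcl9 (0.029) and Rapgef5 (-0.059) in melanoma cells, for MHC class I (-0.048), naive and memory genes (0.11) and Cxcl10 (-0.0063) in CD8 T cells, and for monocyte genes (-0.043) in macrophages. Naive and memory genes also reversed with the stricter cell filter (0.019) and at 50 UMIs (0.045). Dnajb1 in macrophages was -0.13 without low-ribosomal barcodes. Myeloid genes in melanoma cells were -0.057 without cells holding another gate's markers and -0.039 at 50 UMIs. In macrophages monocyte genes were -0.045 at 50 UMIs, and with at least 1 UMI in each library monocyte genes were -0.0078, G1/S genes -0.067 and unfolded protein genes -0.044. The cause was not tested for any of these. Of 543 list values under alternatives 445 stayed close to the reported value, and of 3427 gene values 3197 did. Macrophage values rest on 35 D+F cells and are the least precise.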

Other observations

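Some genes past 1.5-fold were shared between cell types. Of 8071 genes tested in both melanoma and CD8 T cells, 19 were higher in aPD-1 in both, which is 22.9% of the 83 melanoma genes and 2.68% of the 710 CD8 T cell genes past that fold. Over all 8071 genes, 8.80% were past it in CD8 T cells and 1.03% in melanoma cells. Another 11 were higher in D+F in both, 15.1% of 73 and 2.36% of 467. Over all 8071 genes, 5.79% were in CD8 T cells and 0.904% in melanoma cells. The directions were opposite for 24 genes. Ifi27l2a was among the first, with log2 ratios of 0.63 in melanoma cells and 1.01 in CD8 T cells. Hspa1b was among the second, with -0.96 and -2.10. Between CD8 T cells and macrophages, 2972 genes were tested in both. Of these, 30 were higher in aPD-1 in both, 25% of 120 and 7.46% of 402. Over all 2972 genes, 13.5% were in macrophages and 4.04% in CD8 T cells. Another 13 were higher in D+F in both, 19.7% of 66 and 3.66% of 355. Over all 2972 genes, 11.9% were in macrophages and 2.22% in CD8 T cells. The directions were opposite for 32 genes. Hspd1, the mitochondrial chaperonin, was higher in D+F in both types, at -0.60 and -0.70, as was Isg15, at -0.90 and -0.62. The types of a library share its handling and its free RNA, so these overlaps are not independent.

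Creb5, a transcription factor, falls outside the rule for named genes and was chosen after its values were seen. In melanoma cells it had 210 UMIs in aPD-1 and 64 in D+F, or 10.2 and 2.29 CPM, a log2 ratio of 2.16 (1.75 to 2.59). The rule left it out because its melanoma level was 13.3% of that in another cell type of the aPD-1 library.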
